A study of Mus musculus with 9 samples.

Results

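The numbered orphan G protein-coupled receptors are genes whose symbol is Gpr followed by a number and at most 1 letter, a name given to receptor-like sequences before a ligand was known. The 50 genes described here were selected on their mean normalised count, which had to reach 5 in both of the authors' deposited tables. They are 50 of 89 such symbols in a table of 24015 genes. The 39 others fell below the threshold in at least 1 table, and 5 of the 39 had a mean count of 0 in both. Just inside it were Gpr52 and Gpr55, with mean counts of 5.27 and 5.48 in the table for E1. Just outside were Gpr64 and Gpr126, at 4.5 and 4.25 in that table. The symbols are those of an older annotation, and 7 of the 50 are now named as adhesion receptors (Gpr56 is Adgrg1, Gpr124 is Adgra2). A further 8 are grouped here as proteins assigned mainly to internal membranes such as the Golgi and the lysosome.

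RNA came from the microdissected dentate gyrus of adult wild-type C57BL/6 mice aged 8 weeks, with 1 library per mouse and 3 mice in each of the groups E1, E4 and E0. The study asks how neuronal activation changes expression and chromatin in the adult brain. As background to the study, mice received electroconvulsive stimulation and E is followed by the hours since then, E0 being unstimulated. Neither the labels nor the files state the sex of the mice. The whole dissected tissue was measured, so less RNA per cell and fewer cells of a type cannot be told apart. What was analysed are the authors' comparisons of E1 with E0 and of E4 with E0, which share the E0 mice and hold no value per mouse. The tables do not name the direction of their fold changes, which were read as E1 or E4 over E0. Read so, the activity-induced gene Arc stood at 6.65 ± 0.14 in E1 and 3.41 ± 0.33 in E4, and Fos at 4.64 ± 0.21 in E1 and 0.51 ± 0.30 in E4 (log2 fold change ± SE in the authors' deposited tables). From the mean counts of genes with a single read, the E1 libraries held about 1941140 to 4756550 reads in genes, the E4 libraries 10024100 to 13554300 and the E0 libraries 6136630 to 10964800. The median standard error (SE) of the members' log2 fold changes was larger in E1 (0.27) than in E4 (0.19).

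G protein-coupled receptors span the membrane and pass a signal to heterotrimeric G proteins. Gs raises cyclic AMP through adenylyl cyclase, Gi lowers it and Gq releases calcium from internal stores. Cyclic AMP is tied to plasticity in granule neurons, the principal cells of the dentate gyrus. Several orphan receptors signal without any ligand. In the dentate gyrus, numbered receptors are also found on glia, blood vessels and interneurons.

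Promoter sequences of 4 members are shown: the close relatives Gpr3 and Gpr12 changed in opposite directions, Gpr19 rose in E1, and Gpr45 fell in E1 and rose in E4. Each is the 250 bases before the annotated start, from RefSeq on build GRCm38.p6, 5′ to 3′ on the gene's strand. The authors mapped to mm9, so these coordinates do not apply to their alignments. Capitals mark TGACG, the core of the cyclic AMP response element, and GCGNGGGCG, the site of Egr factors, in either strand.
Gpr3, chr4:133212537-133212786, minus strand: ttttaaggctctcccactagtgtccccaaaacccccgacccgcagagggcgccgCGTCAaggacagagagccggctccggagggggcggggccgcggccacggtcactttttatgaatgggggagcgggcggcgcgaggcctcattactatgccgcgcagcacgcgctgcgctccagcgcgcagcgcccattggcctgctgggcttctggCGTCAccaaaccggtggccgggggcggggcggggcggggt
Gpr12, chr5:146585240-146585489, minus strand: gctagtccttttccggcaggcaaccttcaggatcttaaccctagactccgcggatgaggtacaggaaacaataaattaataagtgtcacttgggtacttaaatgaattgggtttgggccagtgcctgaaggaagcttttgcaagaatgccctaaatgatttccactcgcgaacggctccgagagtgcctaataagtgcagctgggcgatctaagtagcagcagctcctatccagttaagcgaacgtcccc
Gpr19, chr6:134897926-134898175, minus strand: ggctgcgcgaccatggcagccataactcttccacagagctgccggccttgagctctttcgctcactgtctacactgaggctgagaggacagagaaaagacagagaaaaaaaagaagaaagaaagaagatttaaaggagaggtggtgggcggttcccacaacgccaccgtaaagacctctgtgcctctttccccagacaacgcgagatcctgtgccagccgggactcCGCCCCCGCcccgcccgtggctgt
Gpr45, chr1:42952622-42952871, plus strand: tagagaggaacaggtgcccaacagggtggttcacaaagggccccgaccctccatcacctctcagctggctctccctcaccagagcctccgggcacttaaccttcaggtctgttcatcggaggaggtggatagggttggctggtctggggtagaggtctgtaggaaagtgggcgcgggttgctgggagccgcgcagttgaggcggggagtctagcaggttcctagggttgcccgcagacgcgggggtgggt

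The window of Gpr3 held TGACG at 2 places, that of Gpr19 held the Egr letters, and those of Gpr12 and Gpr45 held none of the motifs searched. The window of Gpr157, the member raised most in E1, held none either and is not shown. Gpr19 had 4 listed promoters. The window of promoter 2 overlapped the one shown and held the same Egr letters. Promoter 3 held none of the marked letters and promoter 4 held TGACG. Promoters were listed for 38 members, and the one listed first was used where there were several. TGACG was in 9 of the 38 (23.7%), against 17.9% of 27025 promoters of all genes. Among members raised in E1 the count was 5 of 11 (Gpr3, Gpr83, Gpr101, Gpr123 and Gpr180), among members lowered 1 of 6 and among members not called 3 of 21. Split by the calls in E4, it was 2 of 7 raised, 1 of 6 lowered and 6 of 25 not called. The share among all genes raised in E1 was not counted, so no enrichment is read from these counts. The full element TGACGTCA, which contains TGACG, was in 0 of the 38 and in 1.62% of all. The AP-1 letters TGANTCA were in 1 of 38 (Gpr115), against 6.87% of all, and the Egr letters in 2 of 38 (Gpr19 and Gpr153), against 4.65%. The CArG box of serum response factor was in 0 of 38, against 1.40%, the E-box CACGTG in 0 of 38, against 6.05%, and TATAAA in 3 of 38, against 13%. These are counts of letters and not of bound sites.

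In E1, 12 of the 50 members were raised, 7 were lowered and 31 were not called at an adjusted p below 0.05. For comparison, of the genes reaching that mean count in both tables, 20.6% rose and 17.1% fell in E1. In E4, 10 members were raised, 9 lowered and 31 not called, beside 21.4% raised and 19.3% lowered of such genes. These shares also stand beside the counts of role groups and gene lists below, which hold few genes each. The gene lists were not held to that mean count. They therefore include genes outside these shares, such as Gngt1 and Gprc5a, both raised in E1. The members' median log2 fold change was 0.03 in E1 and -0.11 in E4, and that of all such genes -0.02 and -0.01. The mean counts that chose the members come from these same comparisons, so nothing about the family as a whole is read from these counts. In all, 31 members were called in at least 1 comparison. Of the 12 raised in E1, 3 were also raised in E4 (Gpr3, Gpr22 and Gpr83) and 9 were not called there. Of the 7 lowered in E1, 3 were lowered in E4 (Gpr12, Gpr61 and Gpr85), 3 were not called and 1, Gpr45, was raised.

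**Figure D1:**
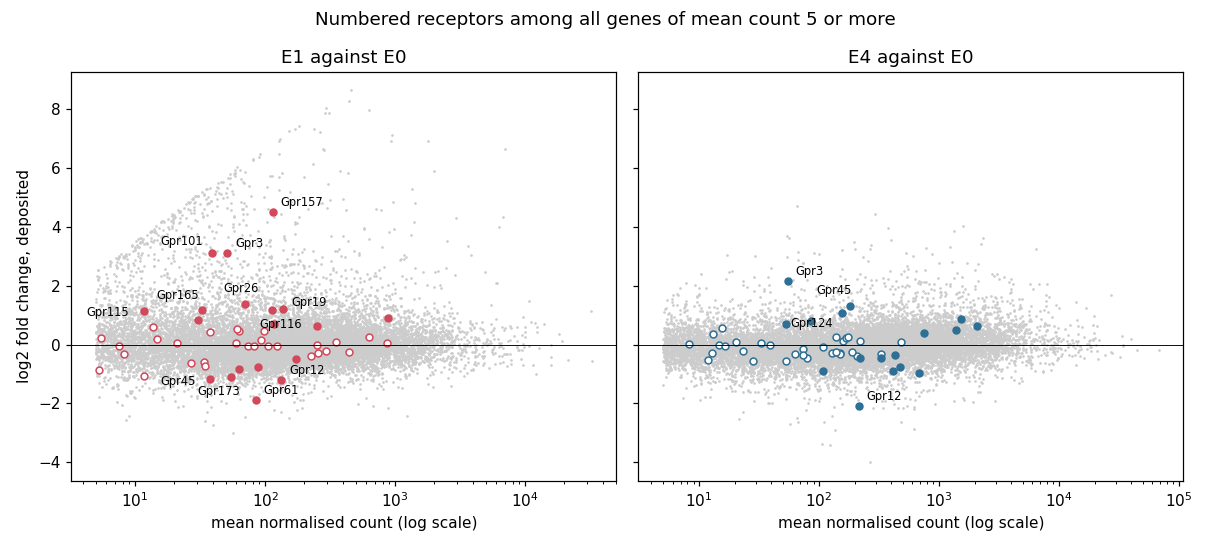
Deposited log2 fold change (vertical axis) against mean normalised count (horizontal, log scale) for E1 against E0 (left) and E4 against E0 (right). Grey points are all genes of mean count 5 or more in that table, coloured points 48 of the 50 numbered receptors, filled where the adjusted p was below 0.05. Members called with an absolute log2 fold change above 1 are named, Gpr157 standing highest in E1 at 4.51 and Gpr12 lowest in E4 at -2.09.

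Levels in each group were derived from the mean count and the fold change of each table, with the table for E1 multiplied by 1.89 to put E0 on 1 scale. The E0 level could thus be derived from both tables, and for 48 of 50 members both values lay within 0.25 on the log2 scale. Deposited fold changes were shrunken towards 0 at low counts, which makes derived levels of little-read genes too alike between groups. The exceptions to the agreement within 0.25 were Gpr101 (15.3 from the table for E1 and 11.5 from that for E4) and Gpr157 (18.2 and 14.6). Unless stated otherwise, E0 levels of members are those from the table for E4. Derived E0 levels ran from 8.29 normalised counts for Gpr55 to 1617 for Gpr162. Per kilobase of the longest annotated transcript, Gpr162 came first in E0 (566 per kb), before Gpr137 (323), Gpr22 (253), Gpr56 (178), Gpr155 (177), Gpr12 (157) and Gpr158 (151). At the other end stood Gpr98 (1.66), Gpr101 (2.12), Gpr55 (2.23), Gpr161 (2.85) and Gpr157 (2.98). Gpr3 was among the low genes, at 7.97 per kb. No spread over mice is known for these levels, so neighbours in this order are not told apart.

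**Figure D2:**
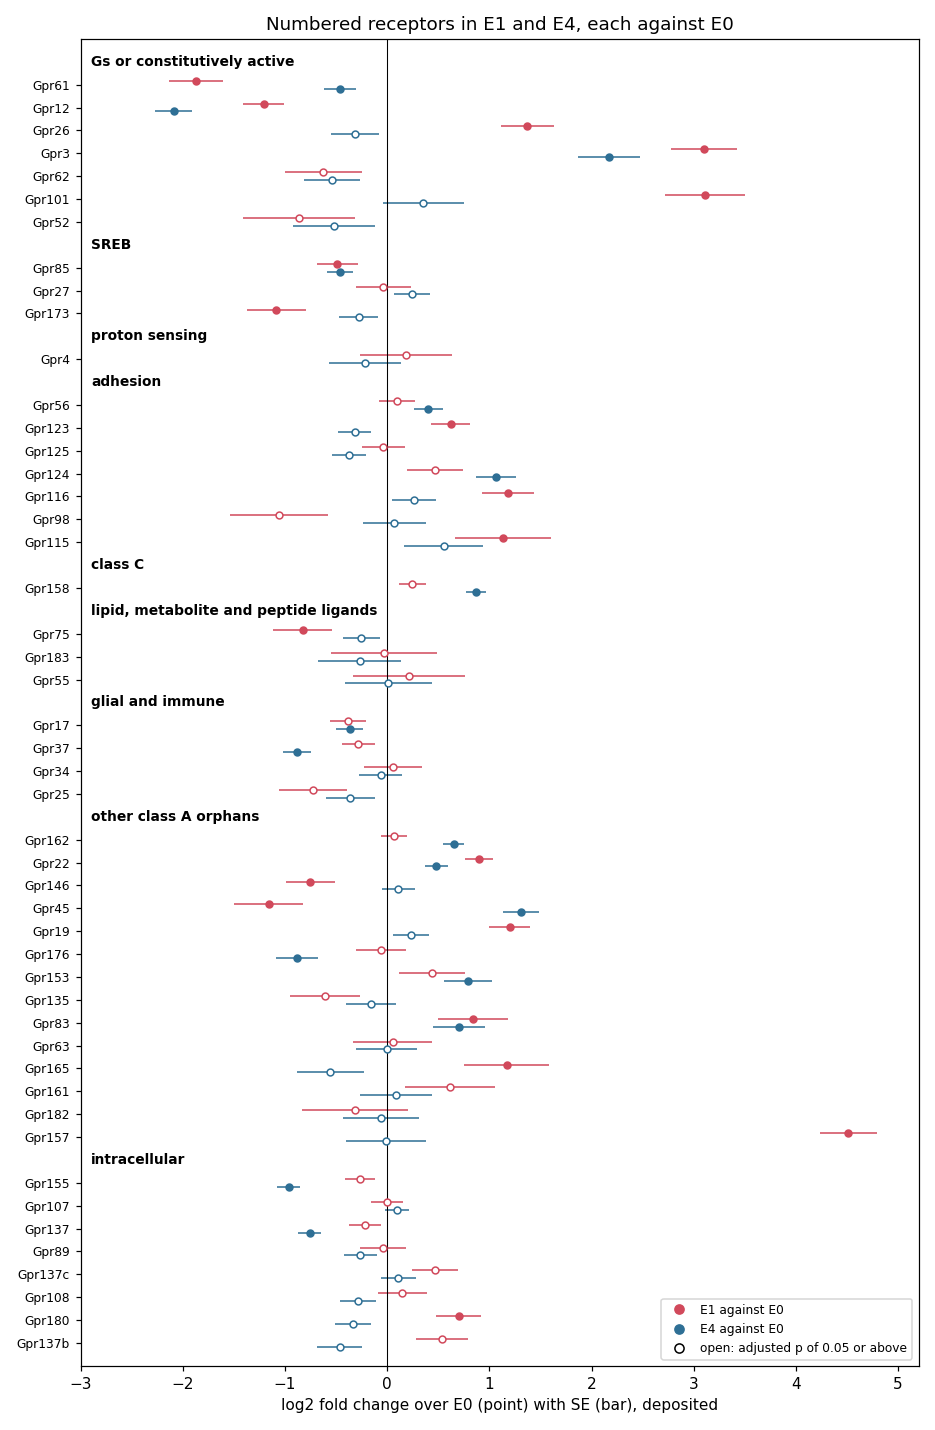
Deposited log2 fold change over E0 (point) with its SE (bar) for 48 of the 50 members, grouped by what they are known to do and ordered by mean count, with E1 above E4 for each gene. Filled points had an adjusted p below 0.05. Gpr3 lies right of 0 and Gpr12 left of 0 at both times, and Gpr45 lies left in E1 and right in E4.

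The receptors that activate Gs, mostly without a ligand, included the highest and the lowest fold change among the 50 in E4, those of Gpr3 and Gpr12. Of 7 members, 3 rose and 2 fell in E1, and 1 rose and 2 fell in E4. Gpr3, which keeps cyclic AMP high in neurons and in resting oocytes, had a derived level of 173 normalised counts in E1, against 20.1 in E0, and of 90.3 in E4. It was raised 8.59-fold in E1 (3.1 ± 0.33, log2 fold change ± SE, adjusted p = 5.19e-20) and 4.5-fold in E4 (2.17 ± 0.30, adjusted p = 1.06e-11) in the authors' deposited tables. Gpr12, its close relative with the same coupling, did the opposite, with 152 in E1 and 82.0 in E4, against 349 in E0. It was lowered at -1.21 ± 0.20 in E1 (adjusted p = 2.6e-08) and -2.09 ± 0.18 in E4 (adjusted p = 2.91e-29) in the authors' deposited tables. At E0 the derived level of Gpr12 per kilobase was 157, against 7.97 for Gpr3. Gpr6, the remaining relative, was below the threshold with mean counts of 2.70 and 5.02 and was not called in either table.

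Gpr61, a brain receptor with constitutive Gs activity, had 68.9 normalised counts in E1, against 253 in E0, and 184 in E4. It was lowered at -1.87 ± 0.27 in E1 (adjusted p = 4.25e-11) and -0.46 ± 0.15 in E4 (adjusted p = 0.00945) in the authors' deposited tables. Its E1 value was the lowest of the 50 members. Gpr26, a constitutively active receptor of the brain, had 190 counts in E1, against 69.6 in E0, and 56.1 in E4. It was raised in E1 at 1.37 ± 0.26 (adjusted p = 1.12e-06) and not called in E4 at -0.31 ± 0.24 (adjusted p = 0.316) in the authors' deposited tables. Gpr101 raises cyclic AMP, and its duplication causes gigantism in humans. It had 132 counts in E1, against 15.3 in E0 from the table for E1. In E4 it had 14.7, against 11.5 in E0 from the table for E4. Its log2 fold change in the authors' deposited table was 3.11 ± 0.39 in E1 (adjusted p = 3.87e-14) and 0.35 ± 0.40 in E4 (adjusted p = 0.530). Gpr52, a Gs-coupled receptor of the striatum, and Gpr62 were not called, with -0.86 ± 0.54 and -0.63 ± 0.37 in E1 and -0.52 ± 0.41 and -0.54 ± 0.28 in E4 in the authors' deposited tables.

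Among the remaining class A receptors, Gpr157 showed the greatest rise of the family. It signals through Gq and sits on the cilia of neural progenitors. Its derived level was 415 normalised counts in E1, against 18.2 in E0 from the table for E1. In E4 it was 14.5, against 14.6 in E0 from the table for E4. In the authors' deposited table it was raised 22.8-fold in E1 (4.51 ± 0.28, adjusted p = 8.98e-57) and stood at -0.01 ± 0.39 in E4 (adjusted p = 0.987). Such a rise was not rare in E1, where 343 genes were raised by at least 3 on the log2 scale, and 208 of these had a mean count below 5 in the table for E4. Gpr149 and Gpr174 are numbered receptors of that kind and were left out by the threshold. Whether the rises of Gpr157 and Gpr101 share a source with these genes was not tested.

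Gpr22, a receptor of heart and brain and among the best read members, had 2177 normalised counts in E1 and 1621 in E4, against 1160 in E0. It was raised at 0.90 ± 0.14 in E1 (adjusted p = 2.28e-09) and 0.48 ± 0.11 in E4 (adjusted p = 9.04e-05) in the authors' deposited tables. Gpr19, an orphan receptor of brain and testis, had 363 counts in E1, against 156 in E0, and 183 in E4. It was raised 2.30-fold in E1 (1.2 ± 0.20, adjusted p = 2.49e-08) and not called in E4 (0.23 ± 0.18, adjusted p = 0.329) in the authors' deposited tables. Gpr83, a receptor of the neuropeptide PEN, was raised at both times, at 0.84 ± 0.34 in E1 (adjusted p = 0.0392) and 0.70 ± 0.26 in E4 (adjusted p = 0.0191) in the authors' deposited tables. Gpr165 was raised in E1 at 1.17 ± 0.42 (adjusted p = 0.0166) and stood at -0.56 ± 0.32 in E4 (adjusted p = 0.173) in the authors' deposited tables.

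Gpr45 was the member whose direction turned between the times. It is an orphan receptor of the nervous system whose derived level was 43.8 normalised counts in E1 and 257 in E4, against 104 in E0. It was lowered at -1.16 ± 0.34 in E1 (adjusted p = 0.00269) and raised at 1.31 ± 0.18 in E4 (adjusted p = 3.55e-12) in the authors' deposited tables. Gpr146, linked to cholesterol handling in the liver, was lowered in E1, at -0.75 ± 0.24 (adjusted p = 0.00707), beside 0.11 ± 0.16 in E4 (adjusted p = 0.650) in the authors' deposited tables. Gpr162 and Gpr153, a related couple of brain receptors, were raised in E4, at 0.65 ± 0.10 (adjusted p = 1.61e-09) and 0.79 ± 0.23 (adjusted p = 0.0027) in the authors' deposited table. Neither passed in E1, with Gpr162 at 0.07 ± 0.12 and Gpr153 at 0.44 ± 0.32 in the authors' deposited table. Gpr176, which acts in the clock of the suprachiasmatic nucleus, was lowered in E4 to 75.3 counts, against 139 in E0 (-0.88 ± 0.21, adjusted p = 9.66e-05 in the authors' deposited table). Gpr63, Gpr135, Gpr161 (a ciliary receptor that restrains Hedgehog signalling) and Gpr182 were called at neither time.

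**Figure D3:**
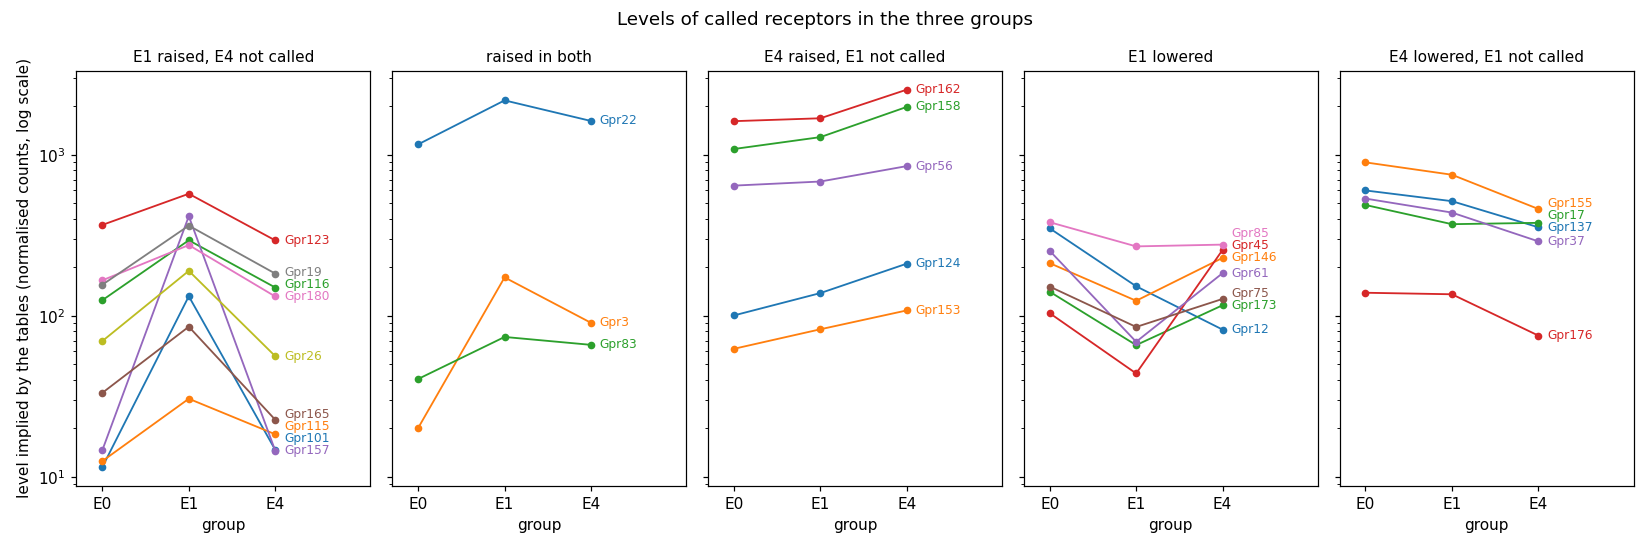
Derived level in normalised counts (vertical axis, log scale) in the groups E0, E1 and E4 for 29 of the 31 members called in at least 1 comparison, with 1 panel per pattern of calls. Points are group levels derived from the deposited tables, with E0 from that for E4, and have no error over mice. Gpr157 and Gpr101 are highest in E1 and are near 14.5 and 14.7 in E4, while Gpr12 is lower at each later time.

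The SREB receptors, a group strongly conserved among vertebrates and expressed in brain, had 2 of 3 members lowered in E1 and 1 lowered in E4. Gpr173 had 65.7 normalised counts in E1, against 141 in E0, and 116 in E4. It was lowered in E1 at -1.08 ± 0.29 (adjusted p = 0.000774) and not called in E4 at -0.28 ± 0.19 (adjusted p = 0.259) in the authors' deposited tables. Gpr85, linked to hippocampal neurogenesis in mice, was lowered at both times, at -0.49 ± 0.20 (adjusted p = 0.0450) in E1 and -0.46 ± 0.13 (adjusted p = 0.00105) in E4 in the authors' deposited tables. The E1 call of Gpr85 was lost once fold changes were centred (adjusted p = 0.0613). Gpr27 was not called, at -0.04 ± 0.27 in E1 and 0.24 ± 0.17 in E4 in the authors' deposited tables.

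Gpr4, a proton sensor of blood vessels, was little read, with mean counts of 14.7 and 23.3, and was called at neither time. Gpr158, the only class C member and a postsynaptic partner of the G protein regulator Rgs7, had 1983 counts in E4, against 1086 in E0, and 1287 in E1. It was raised in E4 at 0.87 ± 0.10 (adjusted p = 7.98e-17) and not called in E1 at 0.25 ± 0.13 (adjusted p = 0.136) in the authors' deposited tables.

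The adhesion receptors, whose long extracellular part binds matrix or other cells, rose in 3 of 7 cases in E1 and 2 of 7 in E4, with 0 lowered. Of all genes reaching the mean count, 20.6% rose and 17.1% fell in E1, and 21.4% rose and 19.3% fell in E4. With 7 members, nothing is read from the 0 lowered. Gpr116, known from lung epithelium and endothelium, had 294 normalised counts in E1, against 125 in E0, and 150 in E4. It was raised in E1 at 1.18 ± 0.26 (adjusted p = 2.9e-05) and not called in E4 at 0.26 ± 0.21 (adjusted p = 0.358) in the authors' deposited tables. Gpr123 at 0.62 ± 0.19 (adjusted p = 0.00455) and Gpr115 at 1.13 ± 0.47 (adjusted p = 0.0476) were the others raised in E1 in the authors' deposited table. Gpr124, the Wnt7 co-receptor of brain endothelium, had 211 counts in E4, against 100.4 in E0, and 138 in E1. It was raised in E4 at 1.07 ± 0.20 (adjusted p = 4.53e-07) in the authors' deposited table, where Gpr56, which guides cortical and oligodendrocyte development, was raised at 0.40 ± 0.14 (adjusted p = 0.0157). Gpr98, the large receptor mutated in Usher syndrome, stood at -1.06 ± 0.48 in E1 (adjusted p = 0.0715) in the authors' deposited table. Endothelial markers moved in E1 too, with 4 of 8 raised and a summed level of 738 normalised counts in E1, against 415 in E0 on the scale of that table. In E4 0 of 8 were called, with summed levels of 754 in E4 and 753 in E0 on the scale of the table for E4. Their part in the adhesion results was not tested.

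Receptors known from glia and immune cells had 0 of 4 members called in E1 and 2 of 4 lowered in E4. Gpr37, which is abundant in maturing oligodendrocytes, had 290 normalised counts in E4, against 534 in E0, and 437 in E1. It was lowered in E4 at -0.88 ± 0.14 (adjusted p = 1.56e-09) and not called in E1 at -0.28 ± 0.16 (adjusted p = 0.172) in the authors' deposited tables. Gpr17, a timer of oligodendrocyte precursor maturation, was lowered in E4 at -0.37 ± 0.13 (adjusted p = 0.0162) in the authors' deposited table. Of 8 oligodendrocyte markers 0 were called in E4, and their summed level was 10568 in E4 and 10561 in E0. Of 6 precursor markers 0 were called in E4, with summed levels of 1828 in E4 and 2018 in E0. Gpr34, a lysophospholipid receptor of microglia, was called at neither time (0.06 ± 0.28 in E1 and -0.06 ± 0.21 in E4 in the authors' deposited tables), while 4 of 10 microglial markers were lowered in E1 and 2 in E4. Gpr25, a receptor of lymphocytes, was not called and overlaps a gene on the other strand, whose reads cannot be told apart from its own.

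Of members with a known lipid ligand, Gpr75, a receptor for an arachidonic acid product, was lowered in E1 at -0.83 ± 0.29 (adjusted p = 0.0140) in the authors' deposited table and not called in E4. The oxysterol receptor Gpr183 and the lysophosphatidylinositol receptor Gpr55 had mean counts below 13 in both tables and were called at neither time.

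The 8 proteins of internal membranes had 1 member raised in E1 and 2 lowered in E4. Gpr155, a cholesterol sensor of the lysosome, had 460 normalised counts in E4, against 897 in E0, and 751 in E1. It was lowered in E4 at -0.96 ± 0.11 (adjusted p = 4.39e-16) and not called in E1 at -0.27 ± 0.15 (adjusted p = 0.149) in the authors' deposited tables. Gpr137, a lysosomal membrane protein, was lowered in E4 at -0.76 ± 0.11 (adjusted p = 3.4e-10) in the authors' deposited table. Gpr180 was raised in E1 at 0.70 ± 0.22 (adjusted p = 0.00676) and stood at -0.33 ± 0.17 in E4 (adjusted p = 0.119) in the authors' deposited tables. The Golgi proteins Gpr107, Gpr108 and Gpr89 were called at neither time, Gpr107 with -0.003 ± 0.16 in E1 and 0.09 ± 0.12 in E4 in the authors' deposited tables. Exons of Gpr137 and Gpr155 overlap genes on the other strand, as do those of 12 members in all, and strand use in counting is not stated, so such reads cannot be told apart. The called members Gpr17, Gpr124, Gpr158 and Gpr173 are among these 12. Exons of Gpr75 and Gpr176, also called, overlap a gene on the same strand, where strand could not separate the reads. Without the 14 members whose exons overlap any other gene, 5 members remained lowered in E4 in place of 9.

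The change between the times was taken as the difference of both log2 fold changes over their combined error. By this test E4 exceeded E1 for 6 members and lay below it for 14, where the shares of all 13677 genes tested were 16.4% and 18.3%. Gpr45 gained most, by 2.47 ± 0.38 (difference ± SE, adjusted p = 1.83e-09). Gpr61 at 1.41 ± 0.31 (adjusted p = 3.93e-05), Gpr146 at 0.86 ± 0.29 (adjusted p = 0.0116), Gpr158 at 0.62 ± 0.16 (adjusted p = 0.000869) and Gpr162 at 0.58 ± 0.16 (adjusted p = 0.00147) were also higher in E4. Gpr157 lost most, at -4.52 ± 0.48 (adjusted p = 2.64e-19), before Gpr101 at -2.76 ± 0.56 (adjusted p = 7.43e-06), Gpr165 at -1.73 ± 0.53 (adjusted p = 0.00463), Gpr26 at -1.68 ± 0.35 (adjusted p = 1.4e-05), Gpr180 at -1.03 ± 0.28 (adjusted p = 0.00134) and Gpr137b at -1.01 ± 0.33 (adjusted p = 0.0101). Gpr137b was called against E0 at neither time, with 0.54 ± 0.25 in E1 and -0.47 ± 0.22 in E4 in the authors' deposited tables. Gpr12 was lower in E4 than in E1 as well, at -0.88 ± 0.27 (adjusted p = 0.00501). For Gpr3 the difference of -0.93 ± 0.44 missed the threshold (adjusted p = 0.0900). The difference passed once both errors were taken as correlated through the shared E0 mice (adjusted p = 0.00782). That correlation was assumed to be the same for all genes and was not measured.

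**Figure D4:**
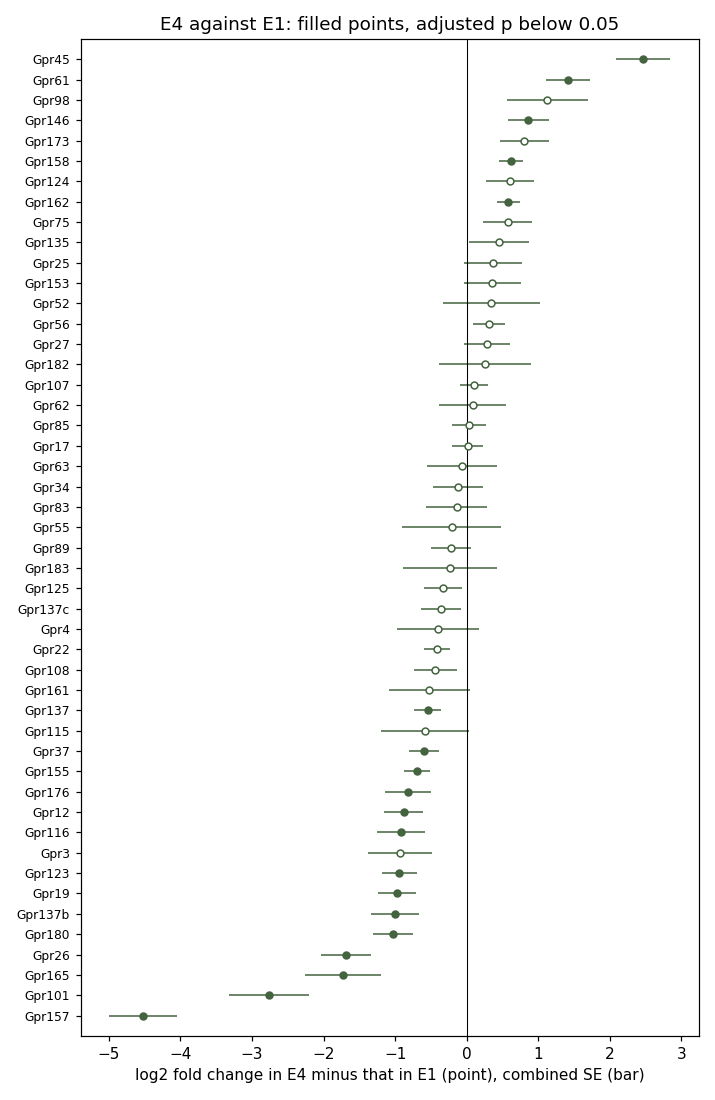
Log2 fold change in E4 minus that in E1 for 48 of the 50 members (point) with the combined SE (bar), ordered by size. Filled points had an adjusted p below 0.05. Gpr45 is at the top with 2.47 and Gpr157 at the bottom with -4.52.

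The partners of these receptors moved as follows. Of 12 G protein alpha subunits tested, 6 were raised and 1 lowered in E1, and 2 were raised and 4 lowered in E4. Gnas, the alpha subunit of Gs, stood at 0.56 ± 0.08 in E1 and -0.26 ± 0.08 in E4, and Gnai1, an alpha subunit of Gi, at 0.83 ± 0.12 and -0.46 ± 0.10, all called in the authors' deposited tables. Gna13 was raised in E1 at 1.25 ± 0.17 in the authors' deposited table. Beta and gamma subunits went both ways, with 4 raised and 4 lowered of 15 in E1 and 1 raised and 5 lowered of 14 in E4. The raised in E1 included Gngt1 at 3.86 ± 0.53 in the authors' deposited table, with mean counts of 14.2 there and 0 in that for E4. Gng7 was lowered at -1.02 ± 0.12 in E1 and -0.35 ± 0.09 in E4 in the authors' deposited tables. The list of receptor kinases and arrestins held 11 genes, Arrdc genes among them. Of these, 3 were raised and 2 lowered in E1, and 1, Arrdc4, was raised and 4 were lowered in E4. Arrb1, an arrestin, was lowered at -0.36 ± 0.09 in E1 and -0.36 ± 0.08 in E4 in the authors' deposited tables. Grk4 rose in E1 at 5.83 ± 0.21 in the authors' deposited table, with mean counts of 434 there against 21.8 in that for E4. Grk1 was raised in E1 too, at 2.26 ± 0.28, and stood at -0.12 ± 0.28 in E4 in the authors' deposited tables. Whether the rises of Gngt1, Grk4 and Grk1 share a source with that of Gpr157 was not tested. A list of sorting and accessory genes also held receptors, namely Gprc5 genes and Gpr37l1. Of the whole list 3 of 11 were raised and 5 lowered in E1, and 3 of 10 were raised and 3 lowered in E4. Receptors were Gprc5a among the raised in E1, Gpr37l1 among the lowered in E1, and Gprc5b and Gprc5c among the raised in E4. Gprin1, a growth cone partner of G proteins, stood at -1.47 ± 0.10 in E1 and Gprc5b, an orphan class C receptor, at 0.997 ± 0.10 in E4 in the authors' deposited tables. Gpr37l1, the astrocyte relative of Gpr37, was lowered in E1 at -0.52 ± 0.11 and not called in E4 at -0.04 ± 0.08 in the authors' deposited tables.

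Cell type markers moved beside these results in E1. Of 9 GABAergic interneuron markers 6 were raised in E1, and 2 were raised and 1 lowered in E4. Their summed level was 5405 normalised counts in E1, against 3442 in E0 on the unscaled values of the table for E1. Of 7 markers of mossy and pyramidal cells 3 were raised in E1, and 0 were raised and 2 lowered in E4. Of 9 granule neuron markers 7 were lowered and 2 raised in E1, with 5 lowered and 3 raised in E4. Of 8 astrocyte markers 5 were lowered in E1 and 1 in E4. None of the markers of these 4 lists was at a mean count of 0. Their part in the changes of Gpr26, Gpr101 and the other members was not tested. The 19 members called at neither time had log2 fold changes of -1.06 to 0.61 in E1 and -0.54 to 0.24 in E4, with median SEs of 0.34 and 0.24. Gpr98, at -1.06 ± 0.48 in E1, was the largest of these changes that did not pass.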

How the data were processed

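Libraries of individual mice were sequenced, aligned with TopHat2 on mm9 and compared with DESeq2, per the submitters' processing notes. No versions, counting program, annotation, strand setting or model formula were found in the labels. The deposited signal per gene, headed baseMean, averages size-factor normalised counts over both groups. The log2 fold changes and SEs, the score (fold change over SE), the p-values and the adjusted p-values are the authors', as deposited. All 2105 genes of mean count below 1 in the table for E1, and all 2137 in that for E4, had an SE below what counting error alone gives, which shows shrinkage of the fold changes. A gene was called at an adjusted p below 0.05, and a missing adjusted p was kept missing.

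E4 against E1 was computed as the difference between the 2 deposited log2 fold changes over the root of their summed squared SEs, with a 2-sided normal p and Benjamini-Hochberg adjustment over 13677 genes (Python 3.11.15, scipy 1.17.1). It takes the errors as independent although both hold E0. It was tested on simulated data without shrinkage, which do not check it for little-read genes, whose deposited fold changes were shrunken. Derived levels assume equal numbers of libraries. Symbols of all 50 members were matched to current names, and 49 to a GENCODE vM21 transcript length. That annotation is on GRCm38, so it served for names, lengths and overlaps.

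The members, role groups and gene lists were chosen with earlier results of these data known. Values of some numbered receptors, including 2 members, are not reported here, though counts over all members include them. The other members could be named. Full values went to members called in each comparison (at most 8 with the smallest adjusted p each way), to the 6 largest called differences each way, to the 2 of highest mean count per role group and to those at the threshold, with at most 4 called genes per other list. Derived levels were printed in place of both mean counts for most members. Gpr37l1 and the uncalled members were named outside that order. With no values per mouse, no SD is given, and p-values reflect the spread among 3 mice per group.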

Additional observations from a re-analysis of the deposited data

Results flagged for a closer look

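These 19 members differed between E4 and E1 by the test of the difference, at an adjusted p below 0.05, given as the E4 minus the E1 log2 fold change. Higher in E4 were Gpr45 (2.47), Gpr61 (1.41), Gpr146 (0.86), Gpr158 (0.62) and Gpr162 (0.58). Lower in E4 were Gpr157 (-4.52), Gpr101 (-2.76), Gpr165 (-1.73), Gpr26 (-1.68), Gpr180 (-1.03), Gpr137b (-1.01), Gpr19 (-0.97), Gpr123 (-0.94), Gpr116 (-0.92), Gpr12 (-0.88), Gpr176 (-0.82), Gpr155 (-0.69), Gpr37 (-0.60) and Gpr137 (-0.54).

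3 numbered receptors below the mean count threshold were called in the authors' deposited tables. Gpr149 stood at 3.77 ± 0.44 and Gpr174 at 4.18 ± 0.48 in E1 (log2 fold change ± SE in the authors' deposited table), with mean counts of 30.05 and 22.0 there and of 3.05 and 2.82 in the table for E4. Gpr21 stood at 1.94 ± 0.43 in E4 in the authors' deposited table, with a mean count of 10.1 there and 1.80 in that for E1.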

How the results depend on the processing

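No paired analysis was possible because the deposited tables hold no values per library, and leaving out each replicate was not run for the same reason. No call of a member changed sign under any setting run. The 12 members raised in E1 became 7 at a mean count of at least 50, and 7 when p-values were adjusted over genes of that mean count, since fewer members were counted. The 9 lowered in E4 became 5 without members whose exons overlap another gene, a setting chosen after seeing the data. The 14 lower in E4 than in E1 became 9 at an adjusted p threshold of 0.01. The 6 higher in E4 than in E1 became 10 when both errors were assumed to be correlated through the shared E0 mice. Gpr75, Gpr124 and Gpr173 were among those that newly passed. Under that setting the 14 lower in E4 became 17, Gpr3 and Gpr22 being among those that newly passed. The other counts stayed within 1.5 times. Depth limits E1 most, where libraries were shallowest.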
